A study of Mus musculus with 16 samples.

Results

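The 56 genes described here are mitotic genes. They comprise the kinases and cyclins that start mitosis, the spindle assembly checkpoint, the chromosomal passenger complex, the kinetochore, the motors and microtubule-binding proteins of the spindle, the cytokinesis machinery, proteins that shape chromosomes, and a pair of transcription factors of this programme. They were chosen by name from knowledge of mitosis, with earlier results of these data known. The condition was at least 1 CPM, the counts of a gene scaled to library size, in at least 4 of the 16 libraries. All 56 met it, out of 13234 genes that met it in the series, and the lowest value of any of the 56 in any library was 18 CPM.

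The data are poly(A) RNA sequencing profiles of mIMCD3 cells, a kidney epithelial line from a mouse carrying an SV40 transgene, named after the inner medullary collecting duct and labelled as wild type. All cultures were first grown on permeable filters for 10 days. They were then given either doxycycline (DOX), a tetracycline antibiotic used to switch on inducible transgenes, at 2 µg/mL, or the vehicle DMSO. Treatment lasted 3 or 6 days, which gave 4 groups of 4 libraries: DMSO at 3 days, DOX at 3 days, DMSO at 6 days and DOX at 6 days. The cells come from a single line, and the labels do not state whether replicates were separate cultures, so that the p-values measure the spread between these libraries, which may be technical.

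In a dividing cell, cyclin-dependent kinase 1 with its B-type cyclins triggers chromosome condensation and spindle assembly. Kinetochores tie each chromatid to spindle microtubules, the checkpoint holds anaphase back until all are attached, and the central spindle then directs the cut between daughter cells. Most of these genes are transcribed late in the cell cycle, and many carry in their promoters a cell cycle genes homology region (CHR) and CCAAT boxes, which the MuvB complex and the factor NF-Y recognise. In bulk RNA, fewer cycling cells and less mitotic RNA in each cycling cell cannot be told apart.

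The libraries held 16933343 to 23960860 estimated counts, and Pearson's r of log2 CPM between libraries of a group was between 0.989 and 0.996. At these depths 3 counts, the limit that a count of 0 allows, equal 0.125 to 0.177 CPM, far under the level of every mitotic gene. Such limits cover counting error only. Of the markers of cell identity, all 6 epithelial genes were expressed, with a summed level of 2125 to 2586 TPM, a level that allows for transcript length, in DMSO-treated and 1570 to 1820 TPM in DOX-treated libraries. Of 6 collecting duct markers, 4 averaged under 1 TPM, *Aqp2* among them. All 6 fibroblast and all 6 endothelial markers averaged under 1 TPM, as did 5 of 6 leukocyte markers, *Ptprc* among them. The exception was the lysosomal gene *Cd68*, and it set most of the leukocyte sum of 17.3 to 24.8 TPM in DMSO and 7.90 to 12.7 TPM in DOX. The part of the lower epithelial and leukocyte sums of DOX-treated libraries in the results was not tested. Of the 56 mitotic genes, 13 overlap a protein-coding gene in the annotation (*Ccna2*, *Cdc25b*, *Cdc25c*, *Bub3*, *Cdc20*, *Ube2c*, *Cdca8*, *Kif4*, *Nusap1*, *Tacc3*, *Prc1*, *Kif20a* and *Foxm1*). The libraries were directional, but the strand setting of the counting is not given in the sources used here, and reads of overlapping genes may be mixed.

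At 3 days, 11 of the 56 genes were lower in DOX-treated than in DMSO-treated cells, and 1, *Psrc1*, was higher. At 6 days, 45 were lower, and *Psrc1* again was the only one called higher. A gene is called where edgeR's glmTreat puts its change beyond a fold of 1.2 at an adjusted p under 0.05. Of all 13234 genes tested, 7.22% were called lower and 5.3% higher at 3 days, and 11.6% were called lower and 10% higher at 6 days. These shares correspond to 956 lower and 702 higher genes at 3 days and to 1530 and 1326 at 6 days, whereas limma on log2(TPM + 1) called 616 lower and 85 higher, then 931 and 376. The median log2 fold change of the 56 genes was -0.17 at 3 days and -0.60 at 6 days, while that of all genes tested was 0.00 at both times. The fall at 6 days thus took in 80.4% of the mitotic genes, and that at 3 days 19.6%.

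All 4 DOX libraries lay below all 4 DMSO libraries for 31 of the 56 genes at 3 days, where 19.8% of all genes tested did so, and for 52 at 6 days, where 20.9% did. Averaged over the 56 genes, log2 CPM was 6.63 ± 0.011 (SD, n = 4) in DMSO and 6.44 ± 0.026 in DOX at 3 days. At 6 days it was 6.67 ± 0.040 in DMSO and 6.13 ± 0.053 in DOX. Summed over the 56 genes, the level fell from 6986 ± 86.1 to 6043 ± 95.9 CPM at 3 days and from 7147 ± 186 to 4806 ± 213 CPM at 6 days.

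The vehicle baseline moved little between the times. Between DMSO at 6 and at 3 days, 0 of the 56 genes were called by edgeR, 0 by DESeq2 and 0 at an unadjusted p under 0.05. Their log2 differences lay between -0.22 and 0.22. Of all genes tested 0% were called in that comparison, with 172 at an unadjusted p under 0.05. The unadjusted p-values of edgeR between times test for a change beyond the fold threshold, so they do not show that smaller changes were absent. With no fold threshold, 2355 of all genes had an unadjusted p under 0.05 and 62 were called, 0 of them among the 56. Such smaller differences were 0.19 for *Cdk1* (SE 0.06), 0.22 for *Hmgb2* (SE 0.08) and -0.22 for *Cenpf* (SE 0.09). Between DOX at 6 and at 3 days, 14 of the 56 were lower and 0 higher by edgeR (1 higher at an unadjusted p under 0.05), 8 lower and 0 higher by DESeq2, and 2 lower and 1 higher by limma on log2(TPM + 1). Of all genes, 2.58%, 1.31% and 0.311% were lower by these tools. Those lower by edgeR were *Cks2*, *Cks1b*, *Cdk1*, *Ube2c*, *Pttg1*, *Birc5*, *Aurkb*, *Spc25*, *Nuf2*, *Cenpa*, *Hmmr*, *Kif23*, *Hmgb2* and *Mki67*. The count depended on single libraries, as the number of genes that differed was 9 without DOX replicate 2 or 4 of 3 days, and 8 without DOX replicate 3 of 3 days or DOX replicate 2 or 4 of 6 days.

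Which genes fell first was read from the difference between the DOX effects of both times, tested in edgeR with no fold threshold. It was negative and past the threshold for 41 of the 56 genes, and positive for 0 by edgeR (1 at an unadjusted p under 0.05), for 42 and 1 by DESeq2, and for 12 and 1 by limma on log2(TPM + 1), beside 9.58% of all genes with a lower effect at 6 days by edgeR, 11.4% by DESeq2 and 2.91% by limma. A difference also holds any change in DMSO from 3 to 6 days, which had a median of 0.03 over the 56 genes, against -0.34 in DOX. The part of DMSO varied by gene. It was 0.16 for *Bub3* and 0.16 for *Ckap2*, beside -0.09 and -0.14 in DOX, and -0.22 for *Cenpf*, beside -0.49 in DOX. Of the 34 genes called lower at 6 days and not at 3 days, 31 had such a called difference, and *Kif2c*, *Dlgap5* and *Smc2* did not. These 34 were picked from the same values that make up the difference, so the 31 are no separate evidence. At 3 days, 17 of the 34 already had all 4 DOX libraries below all 4 DMSO libraries, as did 19.8% of all genes. Their median 3-day log2 fold change, over the 34, was -0.14. Of the 11 called lower at both times, 7 fell further by 6 days: *Kif4*, *Kif20a*, *Kif23*, *Prc1*, *Ncapd2*, *Top2a* and *Mki67*. The other 4, *Bub1b*, *Incenp*, *Cenpe* and *Cenpf*, showed no difference past the threshold in the counts as fitted. With transcript length allowed for by an offset, described below, 47 of the 56 differences were negative and past the threshold, against 8.04% of all genes, among them those of *Incenp*, *Cenpe*, *Cenpf*, *Dlgap5* and *Smc2* (adjusted p = 0.0343, 0.0188, 0.00425, 0.0227 and 0.00304, edgeR) but not those of *Bub1b* and *Kif2c*. With a fold threshold of 1.2 put on the difference, 7 genes stayed called: *Cks2*, *Hmgb2*, *Nuf2*, *Birc5*, *Cdk1*, *Spc25* and *Aurkb*. All 7 had a lower effect at 6 days, as did 0.725% of all genes with that threshold. Of the 41 differences, 34 stayed past the threshold without each of the 16 libraries in turn. *Kif20a* and *Ncapd2* each lost the call in 13 of the 16, *Bub3* and *Smc4* in 10, *Cdc25c* in 7, and *Anln* and *Mybl2* in 1, with adjusted p in edgeR of up to 0.114, 0.1003, 0.0930, 0.0706, 0.0861, 0.0522 and 0.0541.

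**Figure D1:**
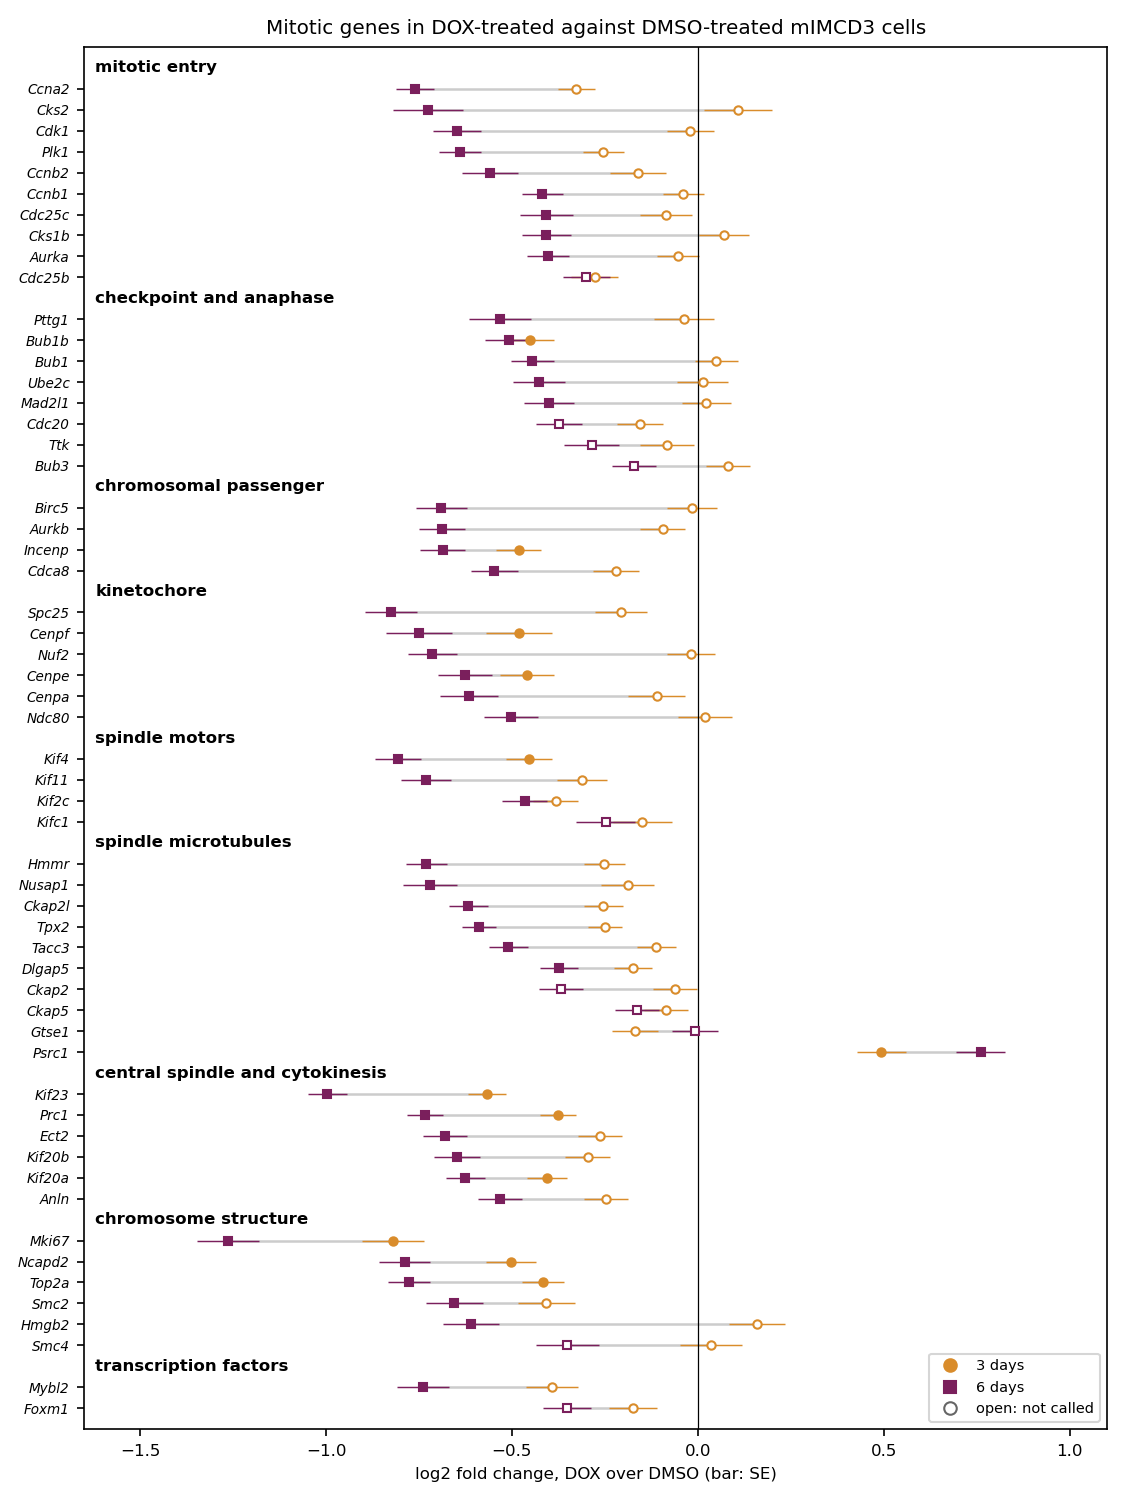
Log2 fold change of DOX over DMSO (x axis) for each of the 56 mitotic genes (y axis), by functional group, at 3 days (circles) and 6 days (squares). Bars are SE and filled symbols are called. At 6 days 46 symbols are filled, against 12 at 3 days, and *Psrc1* alone is filled to the right of 0.

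The genes called lower at 3 days had long transcripts. Their longest annotated transcripts measured 3398 to 11130 bases, with a median of 4629, against a median of 3346 for the 34 called lower at 6 days alone. Over the 56 genes, the 3-day log2 fold change and log2 transcript length had r = -0.51 and Spearman's rho = -0.45, a description across genes of the same libraries. Log2 CPM of all genes was also set against effective length, which was taken from count over TPM and not from the longest transcript. It was taken as the deviation from each gene's mean over all libraries. Per doubling of effective length it changed by -0.080 to -0.098 in DOX replicates 2, 3 and 4 of 3 days. The change was 0.022 in DOX replicate 1 and 0.022 to 0.069 in DMSO of 3 days. With that trend taken out of each library as an offset, r was -0.14 and only *Mki67*, *Kif23* and *Incenp* were still called lower at 3 days. These are 5.36% of the 56 genes. With the offset 5.4% of all genes tested were called lower at 3 days, so the share called was no higher than the background. The log2 fold changes of 3 days still lay mostly below 0 with the offset. Their medians were -0.32 for the 11 genes lower at both times and -0.15 for the 34 lower at 6 days alone. The 10 genes called at neither time had -0.10, *Psrc1* had 0.39, and all genes tested had 0.03. At 6 days 46 genes were called with the offset, 45 of them lower, and 44 of the 46 were those called without it. The share lower at 6 days was then 80.4% of the 56 genes, against 11.1% of all genes tested.

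The medians of the functional groups lay closer together at 3 days once length was allowed for. As fitted, the median 3-day log2 fold change ran from -0.41 for chromosome structure, -0.35 for spindle motors and -0.34 for central spindle and cytokinesis to -0.07 for mitotic entry and -0.01 for checkpoint and anaphase. With the length offset, these medians were -0.24, -0.22, -0.22, -0.16 and -0.09. The medians of the chromosomal passenger and kinetochore genes moved the other way, from -0.16 to -0.25 and from -0.16 to -0.23, so that the passenger genes then had the lowest median at 3 days. Those of the transcription factors and spindle microtubule genes went from -0.28 to -0.20 and from -0.17 to -0.11. At 6 days the corresponding medians were -0.72, -0.60, -0.66, -0.49 and -0.41 as fitted, and -0.69, -0.57, -0.64, -0.51 and -0.41 with the offset. Values of single genes at 3 days are those of the counts as fitted unless the offset is named. The same holds for the counts of called genes per functional group, which stand beside 7.22% of all genes lower at 3 days and 11.6% at 6 days. With the offset, 1 gene each of the chromosomal passenger, cytokinesis and chromosome structure groups was called lower at 3 days, and 0 in every other group.

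**Figure D2:**
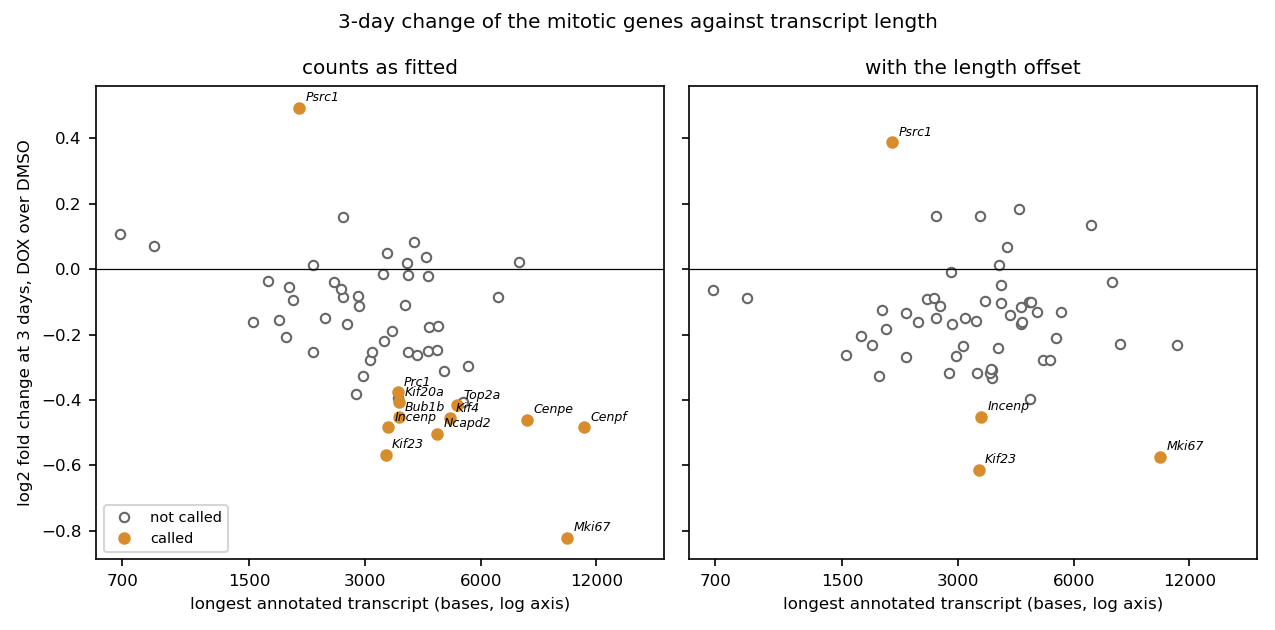
Log2 fold change at 3 days (y axis) against the longest annotated transcript in bases (log x axis) for the 56 genes, from counts as fitted (left) and with the length offset (right). The offset itself used effective length, from count over TPM. Filled points are called; 11 lower ones on the left come down to *Mki67*, *Kif23* and *Incenp* on the right, and *Psrc1* is called higher in both.

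Promoter sequences bear on how these genes are read together, and 6 are shown: those of the 3 genes with the lowest 6-day log2 fold changes among called genes that hold a CHR, *Mki67*, *Kif23* and *Spc25*, those of *Gtse1* and *Ckap5*, whose 6-day values were nearest to 0, and that of *Psrc1*, which was added after its values were seen because it went the other way. Each runs 5′ to 3′ on the gene's strand from 200 bases before to 30 bases after the RefSeq start in GRCm38.p6. Capitals mark CHR matches (TTTGAA, or TTCAAA on the other strand) and CCAAT boxes (CCAAT, or ATTGG on the other strand). No matches overlap in these windows.
Mki67 promoter (chr7:135716350-135716579, minus strand): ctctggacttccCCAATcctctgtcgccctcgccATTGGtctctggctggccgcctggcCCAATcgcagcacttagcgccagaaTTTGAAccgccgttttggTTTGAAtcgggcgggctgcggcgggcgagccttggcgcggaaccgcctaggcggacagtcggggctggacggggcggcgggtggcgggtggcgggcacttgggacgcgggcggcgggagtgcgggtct
Kif23 promoter (chr9:61946770-61946999, minus strand): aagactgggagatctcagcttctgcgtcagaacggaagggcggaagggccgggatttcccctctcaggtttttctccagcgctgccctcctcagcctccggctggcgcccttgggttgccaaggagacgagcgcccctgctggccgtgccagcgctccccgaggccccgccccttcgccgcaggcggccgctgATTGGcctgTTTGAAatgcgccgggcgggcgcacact
Spc25 promoter (chr2:69206184-69206413, minus strand): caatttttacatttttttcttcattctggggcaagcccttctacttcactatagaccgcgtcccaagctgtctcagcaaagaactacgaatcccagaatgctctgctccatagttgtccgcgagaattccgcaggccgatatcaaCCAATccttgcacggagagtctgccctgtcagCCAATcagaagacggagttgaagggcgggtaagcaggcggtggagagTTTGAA
Gtse1 promoter (chr15:85859507-85859736, plus strand): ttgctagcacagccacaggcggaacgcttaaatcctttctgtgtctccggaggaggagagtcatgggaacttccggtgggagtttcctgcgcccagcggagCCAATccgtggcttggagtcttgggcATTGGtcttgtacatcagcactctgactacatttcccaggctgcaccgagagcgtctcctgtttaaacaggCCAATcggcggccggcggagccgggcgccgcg
Ckap5 promoter (chr2:91526562-91526791, plus strand): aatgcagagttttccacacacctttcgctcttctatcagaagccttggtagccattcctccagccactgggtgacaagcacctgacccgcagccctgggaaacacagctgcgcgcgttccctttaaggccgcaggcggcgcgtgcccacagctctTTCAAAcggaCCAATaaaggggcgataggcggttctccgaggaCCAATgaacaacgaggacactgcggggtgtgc
Psrc1 promoter (chr3:108383604-108383833, plus strand): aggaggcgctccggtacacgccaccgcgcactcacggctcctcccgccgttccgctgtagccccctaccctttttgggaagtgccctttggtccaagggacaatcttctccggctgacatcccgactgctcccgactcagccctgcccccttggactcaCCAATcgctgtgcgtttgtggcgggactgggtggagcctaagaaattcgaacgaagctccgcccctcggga
The *Mki67* window holds 2 CHR and 3 CCAAT matches, *Kif23* 1 and 1, and *Spc25* 1 and 2. *Ckap5*, which was not called at either time, holds 1 and 2. The *Gtse1* window has 3 CCAAT and 0 CHR matches, and *Psrc1* has 1 CCAAT and 0 CHR matches. Only the exact letters given above were searched. Near matches, such as ttcgaa in the *Psrc1* window, were not counted, so these windows may hold other forms of the motif. Matches thus stood both in windows of genes that fell and in windows of genes that were not called.

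Over windows of 300 bases, from 250 before to 50 after the start, 47 of the 56 genes were matched in the table, with 52 windows. A CHR stood in 69.2% of them, against 17.9% of all 32851 promoter windows, and a CCAAT box in 78.8%, against 37.4%. Both stood in 61.5%, against 6.95% of all windows. By course, a CHR was found in 9 of 10 windows of genes lower at both times, in 20 of 30 of those lower at 6 days alone and in 7 of 12 of those not called lower. A CCAAT box was found in 10 of 10, 19 of 30 and 12 of 12 of these windows, and both motifs in 9 of 10, 16 of 30 and 7 of 12. A match describes the exact letters given above in a window, not binding.

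By edgeR's calls, mitotic entry genes fell at 6 days. Of the 10, 0 were called at 3 days by edgeR or DESeq2, 1 by limma and 1 at an unadjusted p under 0.05. That p-value is edgeR's, for a change beyond the fold threshold, and smaller falls were present at 3 days. All DOX libraries then lay below all DMSO libraries for 3 of the 10, and the rest overlapped. These were *Ccna2* (-0.33, SE 0.05), *Cdc25b* (-0.28, SE 0.06) and *Plk1* (-0.25, SE 0.06). At 6 days 9 of the 10 were called lower, and 9 had a lower effect at 6 than at 3 days. The lowest at 6 days was *Ccna2*, cyclin A2, a partner of cyclin-dependent kinases in S phase and early mitosis. It had 291, 287, 299 and 283 CPM in DMSO and 227, 220.1, 243 and 235 in DOX at 3 days. At 6 days it had 294, 308, 288 and 308 CPM in DMSO and 184, 178, 176 and 169 in DOX. Its DOX libraries lay below all DMSO libraries at both times, with log2 fold changes of -0.33 at 3 days (SE 0.05, adjusted p = 0.172, edgeR) and -0.76 at 6 days (SE 0.05, adjusted p = 8.88e-09, edgeR). *Cdk1*, the kinase that drives entry into mitosis, had 171, 172, 172 and 163 CPM in DMSO and 147, 168, 174 and 179 in DOX at 3 days, and 215, 192, 183 and 184 CPM in DMSO and 128, 119, 128 and 118 in DOX at 6 days. The libraries of 3 days overlapped, and those of 6 days did not, where *Cdk1* fell by 36.2% (log2 fold change -0.65, SE 0.06, adjusted p = 8.01e-06, edgeR). *Cks2*, a small subunit of the same kinase, had 58.2, 53.8, 52.9 and 49.7 CPM in DMSO and 47.3, 59.2, 61.7 and 63 in DOX at 3 days, and 50.6, 61.7, 53.9 and 49.97 CPM in DMSO and 38.1, 32.2, 32.1 and 28.6 in DOX at 6 days. It had the largest difference between both times of all 56 genes, from a log2 fold change of 0.11 (SE 0.09) at 3 days to -0.73 (SE 0.09) at 6 days. Its paralog *Cks1b* showed the same order of values, with 178, 161, 167 and 155 CPM in DMSO and 146, 175, 183 and 189.6 in DOX at 3 days, and 176, 167, 164 and 166 CPM in DMSO and 133, 123, 127 and 125 in DOX at 6 days. The log2 fold change moved from 0.07 to -0.41, with overlap at 3 days and none at 6 days. The 6-day call of *Cks1b* was lost without DMSO replicate 1 or DOX replicate 2 or 4 of 6 days (adjusted p up to 0.0606, edgeR), and with DESeq2, with no filter beyond 1 count and with the length offset (adjusted p up to 0.179). Reads of these short transcripts may also match processed copies elsewhere in the genome, so their counts are less certain.

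The B-type cyclins that activate *Cdk1* both fell at 6 days. *Ccnb1* had 121, 125, 115 and 124 CPM in DMSO and 108, 118, 119.8 and 126 in DOX at 3 days, and 140.5, 136, 126 and 132 CPM in DMSO and 97.9, 97.4, 106 and 98.8 in DOX at 6 days. *Ccnb2* had 76.8, 85.3, 84 and 78.3 CPM in DMSO and 62.6, 74.9, 72.9 and 80.1 in DOX at 3 days, and 96.6, 87.5, 76.3 and 78.4 CPM in DMSO and 59.1, 55.3, 57.6 and 57.9 in DOX at 6 days. At 3 days their groups overlapped, and at 6 days they fell by 25.2% and 32.1%. *Plk1*, the polo kinase of centrosomes and kinetochores, had 54.9, 56.4, 61.7 and 62.1 CPM in DMSO and 48.9, 49.2, 49.7 and 49.4 in DOX at 3 days, and 62.3, 58.5, 55.8 and 55.6 CPM in DMSO and 36.4, 37.2, 38.9 and 36.5 in DOX at 6 days. Its DOX libraries were below the DMSO libraries at both times, with a 3-day log2 fold change of -0.25 that was not called and a called one of -0.64 at 6 days (SE 0.06, adjusted p = 2.23e-06, edgeR). The kinase *Aurka*, which matures the centrosomes, had 60.9, 63.7, 66.8 and 65.1 CPM in DMSO and 58.9, 64.6, 60.2 and 63.4 in DOX at 3 days, and 69.9, 69.6, 64.4 and 66 CPM in DMSO and 50.8, 49.7, 55.3 and 48.5 in DOX at 6 days. A log2 fold change of -0.40 at 6 days, called, followed one of -0.05 at 3 days, and the call was lost with DESeq2, limma or no filter beyond 1 count (adjusted p up to 0.177). The phosphatase *Cdc25c*, an activator of *Cdk1*, had 26.2, 24.9, 25.9 and 27.8 CPM in DMSO and 23.5, 23.6, 25.8 and 25.9 in DOX at 3 days, and 24.9, 28.8, 25.7 and 24.4 CPM in DMSO and 21.2, 18.7, 20.4 and 18 in DOX at 6 days. Its log2 fold changes were -0.09 and -0.41, the latter called, but not without DMSO replicate 2 or DOX replicate 2 or 4 of 6 days (adjusted p up to 0.151, edgeR). *Cdc25b*, a phosphatase of the same family, was the one gene of the group called at neither time and had 83, 83.2, 79.5 and 80.2 CPM in DMSO and 73.1, 63.4, 66.5 and 65.8 in DOX at 3 days, and 91.3, 74.1, 76.9 and 81.3 CPM in DMSO and 67, 61.3, 67.4 and 67 in DOX at 6 days. Its values of -0.28 and -0.30 were nearly equal, with all DOX libraries below all DMSO libraries at both times.

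**Figure D3:**
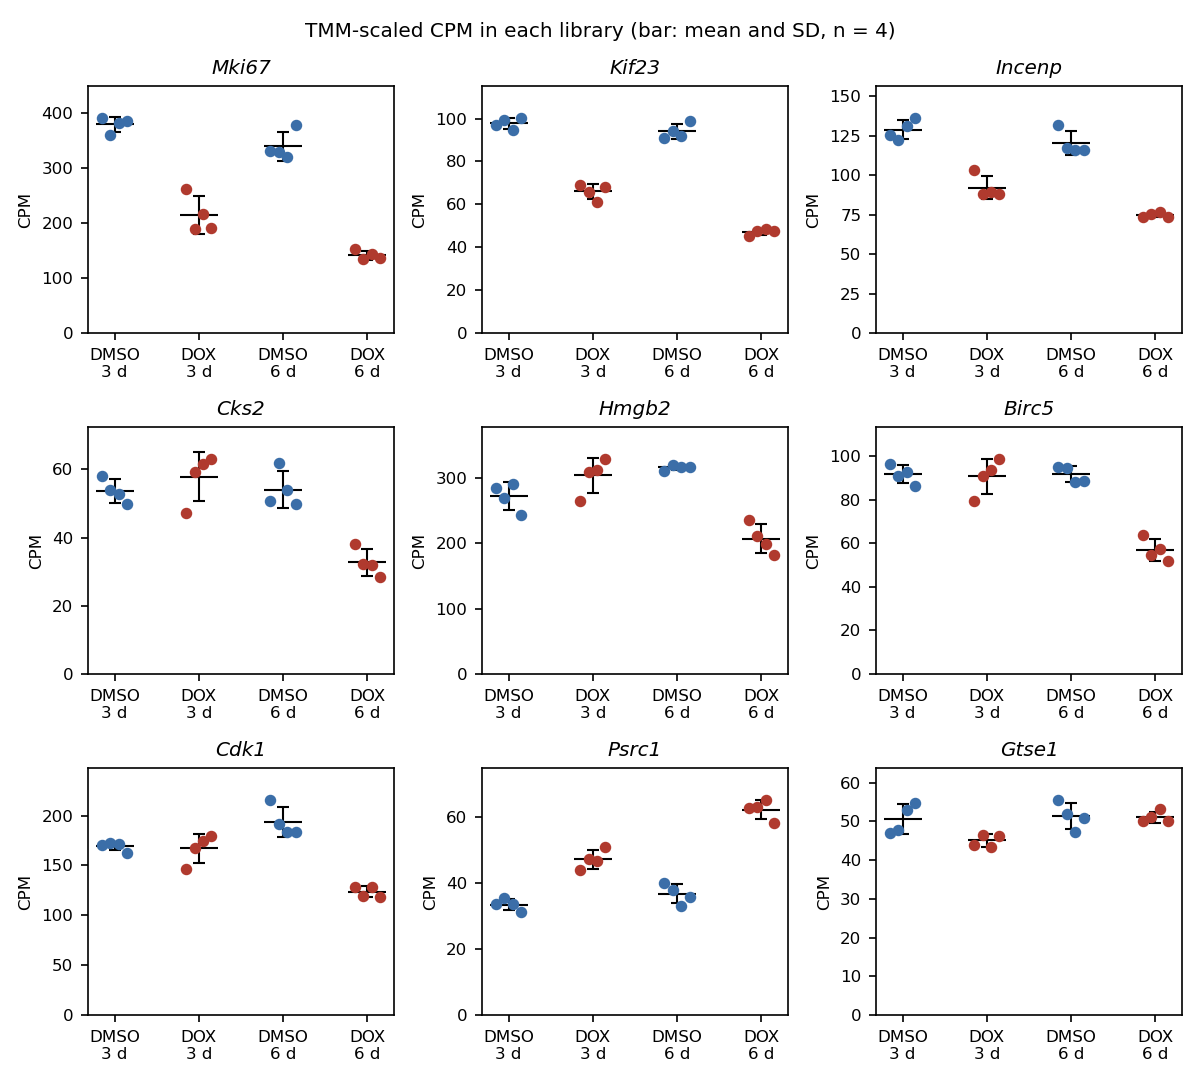
CPM (y axis, from 0) in each of the 4 libraries of each group (x axis) for *Mki67*, *Kif23* and *Incenp*, lower at both times, *Cks2*, *Hmgb2*, *Birc5* and *Cdk1*, lower at 6 days alone, *Psrc1*, higher at both times, and *Gtse1*, called at neither. Points are libraries, bars are mean and SD. In the middle row and *Cdk1* the DOX points of 3 days overlap DMSO and those of 6 days lie below it.

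The checkpoint and anaphase genes had the medians nearest to 0 of all functional groups at both times, with 1 of 8 lower at 3 days and 5 of 8 at 6 days. The 3-day share of 12.5% is 1 gene, beside 7.22% of all genes tested, and 11.6% of all genes were lower at 6 days. *Bub1b* (ENSMUSG00000040084, chr2:118598211-118641591, plus strand, GRCm38), which encodes the checkpoint inhibitor BubR1, was the early one, with 81.7, 88.5, 92.4 and 93.5 CPM in DMSO and 71.5, 59.9, 64.3 and 64.7 in DOX at 3 days, and 96.7, 87.4, 82.2 and 90.6 CPM in DMSO and 60.5, 58.9, 64.7 and 66.8 in DOX at 6 days. It fell by 26.9% at 3 days (log2 fold change -0.45, SE 0.07, adjusted p = 0.0106, edgeR) and by 29.7% at 6 days, and the log2 difference between the times of -0.06 (SE 0.09) was not past the threshold. It was not called at 3 days with the length offset, where its log2 fold change was -0.33. *Bub1*, the kinase that recruits checkpoint proteins to kinetochores, had 95.9, 101, 98.7 and 97.1 CPM in DMSO and 100.1, 102, 105 and 99.3 in DOX at 3 days, and 102, 110.1, 107 and 117 CPM in DMSO and 89.1, 78.7, 78.8 and 73 in DOX at 6 days. At 3 days the groups overlapped with a log2 fold change of 0.05, and at 6 days it was -0.45 (SE 0.06, adjusted p = 0.00358, edgeR). *Mad2l1*, the checkpoint protein that binds *Cdc20*, had 85.6, 85.9, 87.2 and 76.8 CPM in DMSO and 73.6, 91.5, 88.4 and 87.3 in DOX at 3 days, and 92.4, 95.7, 93.1 and 97.4 CPM in DMSO and 79.3, 70.4, 70.3 and 67.1 in DOX at 6 days. Its log2 fold change was 0.02 at 3 days and -0.40 at 6 days, the latter called, but not without DMSO replicate 2 or 4 or DOX replicate 2, 3 or 4 of 6 days (adjusted p up to 0.0983, edgeR).

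Of the other checkpoint and anaphase genes, *Pttg1* and *Ube2c* were called lower at 6 days, and *Bub3*, *Cdc20* and *Ttk* at neither time. *Pttg1*, securin, which holds separase inactive, had 54.9, 48.6, 52.8 and 45.7 CPM in DMSO and 41.6, 49.4, 51.2 and 54.5 in DOX at 3 days, and 51.7, 56.4, 46 and 48.2 CPM in DMSO and 36, 32.9, 37.6 and 33.6 in DOX at 6 days. It was the lowest of the group at 6 days, with a log2 fold change of -0.53 (SE 0.08, adjusted p = 0.00286, edgeR) after -0.04 at 3 days. *Ube2c*, the ubiquitin-conjugating enzyme of the anaphase-promoting complex, had 152, 144, 151 and 136 CPM in DMSO and 132, 148, 152 and 155 in DOX at 3 days, and 159, 145, 131 and 132 CPM in DMSO and 107, 95.8, 114 and 104 in DOX at 6 days. It went from 0.01 to -0.43, with the groups apart at 6 days only, although its 6-day call was lost without DMSO replicate 1 or DOX replicate 2 of 6 days (adjusted p up to 0.0751, edgeR), and with DESeq2, with no filter beyond 1 count and with the length offset (adjusted p up to 0.128). *Bub3*, a binding partner of both Bub kinases, was the highest of the group, with 83.9, 80.1, 81.6 and 78 CPM in DMSO and 77.7, 84.7, 89.1 and 91 in DOX at 3 days, and 97.6, 91.5, 86.3 and 85.9 CPM in DMSO and 82.5, 78.1, 84.4 and 75.8 in DOX at 6 days. Neither time was called, at 0.08 and -0.17, but the difference between them was. *Cdc20*, the activator of the anaphase-promoting complex, with -0.15 and -0.37, and the checkpoint kinase *Ttk*, with -0.08 and -0.29, were called at neither time nor for the difference. *Ttk* had the lowest TPM of the 56 genes in DMSO, 10.8 ± 0.973 (SD, n = 8), and *Cks1b* the highest, 303 ± 13.3.

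The chromosomal passenger complex corrects wrong attachments and later moves to the central spindle. All 4 of its genes were lower at 6 days, beside 11.6% of all genes tested, and 1 at 3 days, beside 7.22%. *Incenp* (ENSMUSG00000024660, chr19:9872296-9899551, minus strand, GRCm38), the scaffold of the complex, was that gene, with 125, 123, 131 and 136 CPM in DMSO and 103, 88.3, 89.1 and 88.3 in DOX at 3 days, and 132, 117, 116 and 116 CPM in DMSO and 73.7, 75.3, 76.8 and 73.5 in DOX at 6 days. It fell by 28.4% at 3 days (log2 fold change -0.48, SE 0.06, adjusted p = 0.00228, edgeR) and by 37.9% at 6 days (log2 fold change -0.69, SE 0.06, adjusted p = 1.12e-06, edgeR). With the length offset the 3-day call stayed, at -0.45 (adjusted p = 0.00427, edgeR, with 1.98e-06 to 0.0232 over all alternatives). *Aurkb*, the kinase of the complex, had 74.6, 81.9, 80.4 and 79.1 CPM in DMSO and 73.4, 73.2, 74.1 and 75.3 in DOX at 3 days, and 99.9, 88.8, 80.9 and 81 CPM in DMSO and 57.3, 53.6, 54.7 and 52 in DOX at 6 days. *Birc5*, survivin, which targets the complex to centromeres, had 96.2, 91, 92.9 and 86.5 CPM in DMSO and 79.5, 91.1, 93.5 and 98.6 in DOX at 3 days, and 95.2, 94.7, 88.1 and 88.8 CPM in DMSO and 63.6, 54.4, 57.5 and 52 in DOX at 6 days. Both overlapped DMSO at 3 days, with log2 fold changes of -0.10 and -0.01, and both reached -0.69 at 6 days. *Cdca8*, borealin, had 53.2, 53.3, 53 and 52.3 CPM in DMSO and 44.6, 45.8, 44.5 and 46.9 in DOX at 3 days, and 60.4, 56.3, 51 and 49.9 CPM in DMSO and 39.2, 35.6, 38.9 and 35.2 in DOX at 6 days. Its 3-day value of -0.22 was not called although no libraries overlapped, and its 6-day value was -0.55 (SE 0.06, adjusted p = 1.64e-04, edgeR). The difference between times was past the threshold for *Aurkb*, *Birc5* and *Cdca8* and not for *Incenp* (adjusted p = 0.0985, edgeR), whose difference passed it with the length offset (adjusted p = 0.0343, edgeR).

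The kinetochore genes were all called lower at 6 days, beside 11.6% of all genes, and 2 of 6 already at 3 days, beside 7.22%. *Cenpf* (ENSMUSG00000026605, chr1:189640606-189688086, minus strand, GRCm38), a large protein of the kinetochore's outer corona, had 185, 176, 172 and 185 CPM in DMSO and 158, 117, 125 and 113 in DOX at 3 days, and 136, 156, 150.4 and 172 CPM in DMSO and 101, 91, 91.2 and 82.5 in DOX at 6 days. On the log2 scale *Cenpf* changed by -0.48 at 3 days (SE 0.09, adjusted p = 0.0245, edgeR) and by -0.75 at 6 days (SE 0.09, adjusted p = 3.11e-05, edgeR). *Cenpe* (ENSMUSG00000045328, chr3:135212537-135273611, plus strand, GRCm38), the kinesin that brings chromosomes to the plate, had 157, 153, 146 and 153 CPM in DMSO and 120.5, 107, 109 and 106 in DOX at 3 days, and 119.5, 136, 129 and 154 CPM in DMSO and 96.5, 87.7, 87.2 and 77.3 in DOX at 6 days. Its values were -0.46 (SE 0.07, adjusted p = 0.0146, edgeR) and -0.63. Their longest transcripts measure 11130 and 7910 bases, both had -0.23 at 3 days with the length offset, not called, and *Cenpf* also lost its 3-day call without DMSO replicate 4 or DOX replicate 2, 3 or 4 of 3 days (adjusted p up to 0.0931, edgeR).

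*Spc25*, *Nuf2* and *Ndc80* encode 3 subunits of the Ndc80 complex, the main microtubule coupler, and were called lower at 6 days and not at 3 days. *Spc25* had 49.9, 48.6, 50.7 and 48.1 CPM in DMSO and 38.1, 43.1, 44.9 and 44.6 in DOX at 3 days, and 49.6, 55.6, 50.7 and 53.8 CPM in DMSO and 34.1, 27.1, 29.6 and 27.8 in DOX at 6 days. It had the lowest value of the group at 6 days, a fall of 43.6% (log2 fold change -0.83, SE 0.07, adjusted p = 2.61e-07, edgeR), after -0.21 at 3 days, which was not called. *Nuf2* had 53.2, 49.8, 52.6 and 51 CPM in DMSO and 44.6, 50.5, 53.6 and 55 in DOX at 3 days, and 56.5, 60.8, 57.7 and 59 CPM in DMSO and 39.3, 35.4, 34 and 33.9 in DOX at 6 days. *Ndc80* had 48.6, 46.6, 44 and 42.9 CPM in DMSO and 42, 47.6, 45.1 and 49.9 in DOX at 3 days, and 49.2, 53, 48.7 and 55.2 CPM in DMSO and 41.1, 34, 37 and 33.4 in DOX at 6 days. At 3 days both overlapped DMSO, with log2 fold changes of -0.02 and 0.02, and at 6 days both were apart from it, with -0.71 and -0.50. *Spc24*, the remaining subunit and one of the other mitotic genes below, had log2 fold changes of 0.01 at 3 days and -0.63 at 6 days, the latter called. *Cenpa*, the histone variant that marks centromeres, had 133, 128, 127 and 124 CPM in DMSO and 103, 119, 126 and 126 in DOX at 3 days, and 132, 128, 106 and 112 CPM in DMSO and 86.3, 71.6, 82.2 and 72 in DOX at 6 days. It passed from -0.11, with overlap, to -0.62 (SE 0.08, adjusted p = 1.77e-04, edgeR).

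Among the spindle motors, 1 of 4 was lower at 3 days and 3 at 6 days, beside 7.22% and 11.6% of all genes. *Kif4* (ENSMUSG00000034311, chrX:100625737-100727214, plus strand, GRCm38), a chromokinesin that also limits the length of the central spindle, had 48.7, 48.1, 50.6 and 47.4 CPM in DMSO and 38.3, 31.9, 35.5 and 36.4 in DOX at 3 days, and 47.8, 47.7, 46.1 and 48.9 CPM in DMSO and 27.5, 25.9, 29.5 and 26 in DOX at 6 days. The change was -0.45 at 3 days (SE 0.06, adjusted p = 0.00662, edgeR) and -0.81 at 6 days (SE 0.06, adjusted p = 5.80e-08, edgeR), with no overlap at either time. The 3-day call of *Kif4* was lost with the length offset, at -0.28 (adjusted p = 0.690, edgeR), and with limma on log2(TPM + 1). *Kif11*, the motor that pushes spindle poles apart, had 167, 159.5, 167 and 163 CPM in DMSO and 149.7, 120.0, 129.6 and 129 in DOX at 3 days, and 162, 164, 159 and 181 CPM in DMSO and 111, 99.6, 101 and 90.5 in DOX at 6 days. Its log2 fold changes were -0.31, not called, and -0.73, called. *Kif2c*, which takes microtubule ends apart at centromeres, was at -0.38 and -0.47 and was called at 6 days. *Kifc1*, a minus-end motor of the spindle poles, was the highest, with 52.8, 54.5, 60.9 and 61.5 CPM in DMSO and 54.4, 50.6, 50.9 and 51.4 in DOX at 3 days, and 67.1, 56.2, 52.7 and 51.8 CPM in DMSO and 44.5, 43.8, 51.9 and 51.6 in DOX at 6 days. Its groups overlapped at both times and neither value, -0.15 and -0.25, was called.

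The spindle microtubule genes held both directions, with 6 of 10 lower at 6 days and 1 higher at both times. *Hmmr*, a microtubule-binding protein of spindle poles, had 88, 89.7, 91.9 and 91.6 CPM in DMSO and 71.4, 75.5, 76 and 80.6 in DOX at 3 days, and 90.6, 97.5, 87.3 and 100.048 CPM in DMSO and 59.4, 57.3, 55.2 and 54.5 in DOX at 6 days. It was the lowest of the group, with -0.25 at 3 days, not called, and -0.73 at 6 days (SE 0.05, adjusted p = 8.98e-08, edgeR). *Nusap1*, which bundles microtubules around chromosomes, had 75.3, 76.9, 77 and 69.2 CPM in DMSO and 60.2, 67.7, 65.2 and 68.6 in DOX at 3 days, and 75, 95.2, 78.8 and 91.5 CPM in DMSO and 56, 52, 50.2 and 48.8 in DOX at 6 days. It fell by 39.3% at 6 days. *Tpx2*, the activator of *Aurka* on the spindle, had 137, 149, 147 and 149 CPM in DMSO and 126, 118, 122 and 123 in DOX at 3 days, and 152, 147, 147 and 151 CPM in DMSO and 97.3, 98.4, 102 and 99 in DOX at 6 days. At 3 days its DOX libraries were all lower with a log2 fold change of -0.25 that was not called, and at 6 days it fell by 33.5%. *Ckap2l*, a spindle pole protein, had 80.7, 77, 78.3 and 73.8 CPM in DMSO and 65.1, 65, 63.6 and 65.9 in DOX at 3 days, and 76, 81.4, 77.7 and 85 CPM in DMSO and 50.3, 51.5, 56.2 and 50.7 in DOX at 6 days. Its values were -0.25 and -0.62. *Tacc3*, which crosslinks kinetochore fibres, had 159.6, 159, 169 and 165 CPM in DMSO and 155, 141, 157 and 152 in DOX at 3 days, and 195, 183, 170.3 and 179 CPM in DMSO and 133, 127, 123 and 128 in DOX at 6 days. Its values were -0.11 and -0.51, the second called. *Ckap2*, a microtubule stabiliser, had 81.3, 84.8, 78.4 and 80.7 CPM in DMSO and 71.8, 80.9, 77 and 82.2 in DOX at 3 days, and 89.6, 94.1, 84.3 and 96.5 CPM in DMSO and 76.1, 66.2, 69.96 and 70.2 in DOX at 6 days. Its 6-day value of -0.37 missed the threshold (adjusted p = 0.0540, edgeR), while the difference between both times passed it. *Dlgap5*, a spindle protein that stabilises kinetochore fibres, with -0.18 and -0.37, was called at 6 days, but not without DMSO replicate 2 or DOX replicate 2 or 4 of 6 days (adjusted p up to 0.0704, edgeR).

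*Psrc1* (ENSMUSG00000068744, chr3:108383839-108388231, plus strand, GRCm38), which encodes a microtubule-binding protein of the spindle also known as a p53 target, was the single gene that rose. It had 33.7, 35.3, 33.7 and 31.1 CPM in DMSO and 43.8, 47.1, 46.5 and 51 in DOX at 3 days, and 39.99, 37.8, 33.1 and 35.9 CPM in DMSO and 62.5, 63, 65 and 58.2 in DOX at 6 days. The DOX libraries lay above all DMSO libraries at both times, by 40.8% at 3 days (log2 fold change 0.49, SE 0.07, adjusted p = 0.00353, edgeR) and by 69.4% at 6 days (log2 fold change 0.76, SE 0.07, adjusted p = 4.16e-07, edgeR). The difference between the times was 0.27 (SE 0.09, adjusted p = 0.0528, edgeR). The 3-day call stayed with the length offset, but not with the offset and the replicate number together or in limma on log2(TPM + 1). *Gtse1*, a microtubule-tip protein that restrains p53, had 46.9, 47.7, 53.1 and 54.8 CPM in DMSO and 44, 46.5, 43.5 and 46.3 in DOX at 3 days, and 55.5, 51.9, 47.2 and 50.9 CPM in DMSO and 50.1, 51, 53.1 and 50.2 in DOX at 6 days. It was the gene nearest to 0 at 6 days, with -0.01 and full overlap, after -0.17 at 3 days. *Ckap5*, the microtubule polymerase, was at -0.09 and -0.16 and was called at neither time.

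Cytokinesis genes were called at both times. Of 6 genes, 3 were lower at 3 days and all 6 at 6 days, beside 7.22% and 11.6% of all genes. All 6 had a larger effect at 6 days, beside 9.58% of all genes with a lower effect then. At 3 days the DOX libraries lay below the DMSO libraries for each of the 6. *Kif23* (ENSMUSG00000032254, chr9:61915905-61946774, minus strand, GRCm38), the motor of the centralspindlin complex, had 96.8, 99.4, 94.6 and 100.2 CPM in DMSO and 69.2, 65.6, 61.3 and 68 in DOX at 3 days, and 91.2, 94.4, 92.1 and 98.8 CPM in DMSO and 45.3, 47.5, 48.6 and 47.4 in DOX at 6 days. It fell by 32.5% at 3 days (log2 fold change -0.57, SE 0.05, adjusted p = 2.38e-05, edgeR) and by 49.9% at 6 days (log2 fold change -0.996, SE 0.05, adjusted p = 8.39e-11, edgeR), and was still called at 3 days with the length offset. *Prc1* (ENSMUSG00000038943, chr7:80294450-80316259, plus strand, GRCm38), which bundles the central spindle, had 161, 165, 173 and 169 CPM in DMSO and 133, 123, 129 and 129.6 in DOX at 3 days, and 177, 177, 165 and 179.6 CPM in DMSO and 109, 104, 107 and 100.4 in DOX at 6 days. *Kif20a* (ENSMUSG00000003779), a kinesin that carries passenger proteins to the midzone, had 120.2, 124, 126 and 126 CPM in DMSO and 91.1, 93.5, 90.7 and 99.3 in DOX at 3 days, and 133, 124, 118 and 126 CPM in DMSO and 78.8, 76.2, 86.2 and 84.2 in DOX at 6 days. These fell by 22.9% and 24.5% at 3 days and by 39.9% and 35.2% at 6 days, and neither was called at 3 days with the length offset. Each overlaps a protein-coding gene on the other strand, *Rccd1* and *Cdc23*. *Prc1* also lost its 3-day call without DMSO replicate 3 or 4 or DOX replicate 2 or 3 of 3 days (adjusted p up to 0.104, edgeR), and *Kif20a* without DOX replicate 3 of 3 days (adjusted p = 0.0516, edgeR).

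The remaining 3 genes of the group were called at 6 days only. *Ect2*, the exchange factor that activates RhoA at the cleavage site, had 212, 200.1, 212 and 197 CPM in DMSO and 179, 171, 166 and 168 in DOX at 3 days, and 191, 222, 205 and 229 CPM in DMSO and 142, 132, 131 and 124 in DOX at 6 days. *Kif20b*, a midzone kinesin, had 117, 115, 109 and 116 CPM in DMSO and 94.9, 91.4, 94.7 and 91.6 in DOX at 3 days, and 100.1, 109.8, 110.5 and 120.4 CPM in DMSO and 76.8, 72.5, 69.2 and 62.9 in DOX at 6 days. *Anln*, anillin, the scaffold of the contractile ring, had 239, 231, 234 and 244 CPM in DMSO and 225, 191, 202 and 182 in DOX at 3 days, and 261, 241, 235 and 251 CPM in DMSO and 175, 169, 172 and 166 in DOX at 6 days. Their 3-day log2 fold changes were -0.26, -0.30 and -0.25, none called, and their 6-day values -0.68, -0.65 and -0.53, with no overlap of groups at either time.

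**Figure D4:**
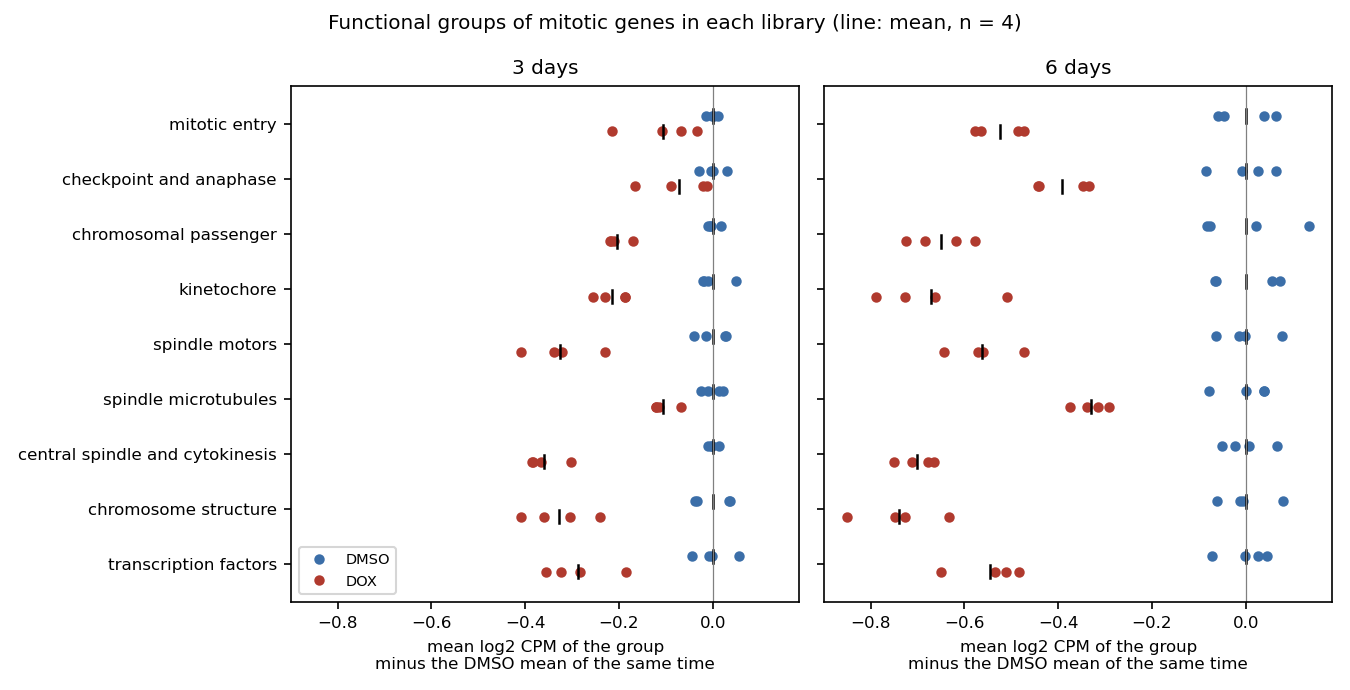
Mean log2 CPM of each functional group in each library minus the DMSO mean of the same time (x axis), by group (y axis), at 3 days (left) and 6 days (right). At 3 days only the DOX points of checkpoint and anaphase overlap DMSO, and at 6 days all DOX points lie left of DMSO, from -0.33 for spindle microtubules to -0.74 for chromosome structure on average.

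Chromosome structure had the lowest median of the functional groups at both times in the counts as fitted, and at 6 days alone with the length offset. Of 6 genes, 3 were lower at 3 days and 5 at 6 days, beside 7.22% and 11.6% of all genes. *Mki67* (ENSMUSG00000031004, chr7:135689784-135716361, minus strand, GRCm38), the Ki-67 proliferation antigen that coats mitotic chromosomes, had 391, 359.5, 382 and 386 CPM in DMSO and 262, 189.7, 217 and 191 in DOX at 3 days, and 331, 329.7, 320.0 and 378 CPM in DMSO and 152, 135, 143 and 136 in DOX at 6 days. It fell by 43.4% at 3 days (log2 fold change -0.82, SE 0.08, adjusted p = 5.98e-06, edgeR) and by 58.3% at 6 days (log2 fold change -1.26, SE 0.08, adjusted p = 1.27e-09, edgeR). Among the DOX libraries of 3 days, replicate 1 stood highest, which is also the one without the length trend, and the 3-day call stayed with the offset at -0.57. *Top2a* (ENSMUSG00000020914, chr11:98992943-99024189, minus strand, GRCm38), the topoisomerase that untangles sister chromatids, had 453, 436, 448 and 443 CPM in DMSO and 361, 315, 335 and 321 in DOX at 3 days, and 428, 455, 429.6 and 464 CPM in DMSO and 275, 260.4, 261 and 240.4 in DOX at 6 days. *Ncapd2* (ENSMUSG00000038252, chr6:125168007-125191701, minus strand, GRCm38), a subunit of condensin I, had 151, 146, 165 and 159.8 CPM in DMSO and 119, 101, 112 and 106 in DOX at 3 days, and 178, 144, 148 and 142 CPM in DMSO and 88.5, 87.4, 92.9 and 85.2 in DOX at 6 days. These fell by 25.1% and 29.4% at 3 days and by 41.7% and 42.1% at 6 days, with no overlap, and neither was called at 3 days with the length offset. *Top2a* lost its 3-day call without DOX replicate 2 of 3 days (adjusted p = 0.0624, edgeR).

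*Hmgb2*, a chromatin protein that bends DNA, averaged above DMSO at 3 days without being called, with 284, 269.7, 290.3 and 242 CPM in DMSO and 265, 309, 312 and 328 in DOX at 3 days, and 311, 320.2, 316 and 317 CPM in DMSO and 235, 211, 199 and 182 in DOX at 6 days. It moved from 0.16 (SE 0.08) with overlap to -0.61 (SE 0.08, adjusted p = 1.64e-04, edgeR) with none. *Smc4*, a core subunit of condensin, had 561, 509, 513 and 476 CPM in DMSO and 528, 529, 533 and 519.6 in DOX at 3 days, and 469, 562, 569 and 605 CPM in DMSO and 497, 447, 419 and 366 in DOX at 6 days. Its groups overlapped at both times, at 0.04 and -0.35, neither called, and the difference between them was past the threshold. *Smc2*, the partner of *Smc4*, was at -0.41 and -0.65, the second called.

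Of both transcription factors 1 was called, at 6 days. *Mybl2*, B-MYB, which joins MuvB to activate late cell cycle genes, had 42.5, 44.3, 42.1 and 46.2 CPM in DMSO and 33.5, 32.1, 30.5 and 37.3 in DOX at 3 days, and 43.5, 40.9, 46.1 and 45.5 CPM in DMSO and 23.3, 27.6, 27.2 and 27.2 in DOX at 6 days. Its 3-day value of -0.39 narrowly missed the threshold (adjusted p = 0.0717, edgeR), and at 6 days it fell by 40.1% (log2 fold change -0.74, SE 0.07, adjusted p = 1.83e-06, edgeR). *Foxm1*, which acts after B-MYB on the same promoters, had 95, 96.8, 101 and 101 CPM in DMSO and 99.3, 81.8, 89.7 and 77.7 in DOX at 3 days, and 101, 91.8, 89.7 and 94.5 CPM in DMSO and 72, 76.6, 74.9 and 72.4 in DOX at 6 days. It overlapped DMSO at 3 days, at -0.17, and was below it at 6 days, at -0.35, but was called at neither.

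Beside the 56 genes, 129 other genes of mitosis, also listed by name, moved less. Both lists were chosen with earlier results of these data known, so this gap cannot be told apart from the choice of genes. Of these 9 were lower and 1 higher at 3 days, 52 lower and 2 higher at 6 days, and the median log2 fold changes were -0.09 and -0.31. The shares lower were 6.98% at 3 days and 40.3% at 6 days, against 7.22% and 11.6% of all genes tested. At 3 days the share was thus no higher than the background. The lowest at 6 days were the cohesin acetyltransferase *Esco2* at -1.08, the centromere gene *Cenpl* at -1.05, the condensin II subunit *Ncapg2* at -0.87, the cyclin F gene *Ccnf* at -0.84 and the kinase *Pbk* at -0.83. The highest called values were those of the centrosomal *Nin* at 0.56 and the kinase *Nek9* at 0.38, both higher in DOX, then *Mis12* at -0.38, *Kntc1* at -0.40 and *Kif15* at -0.41. Motors and cytokinesis genes of this list were lower in 17 of 18 cases at 6 days, kinetochore and centromere genes in 16 of 33, anaphase-promoting complex genes in 2 of 17 (11.8%, near the 11.6% of all genes), and MuvB and pocket protein genes in 0 of 11. For that last list DESeq2 and limma also called 0, and 0 passed an unadjusted p under 0.05 in edgeR's test against the fold threshold.

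Genes of DNA replication, which act before mitosis, also fell in part at 6 days. Of 43 listed, 4 were lower at 3 days and 13 at 6 days, with medians of -0.03 and -0.25. These are 9.30% and 30.2%, against 7.22% and 11.6% of all genes, so the 3-day share was near the background. A lower effect at 6 than at 3 days was found for 23 of them, against 9.58% of all genes. The lowest at 6 days were *Rrm2*, a subunit of ribonucleotide reductase, at -1.61, the origin licensing factor *Cdc6* at -1.03 and the cyclin E gene *Ccne2* at -0.95. *Rrm2* and *Cdc6* were lower already at 3 days, at -0.88 and -0.54.

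**Figure D5:**
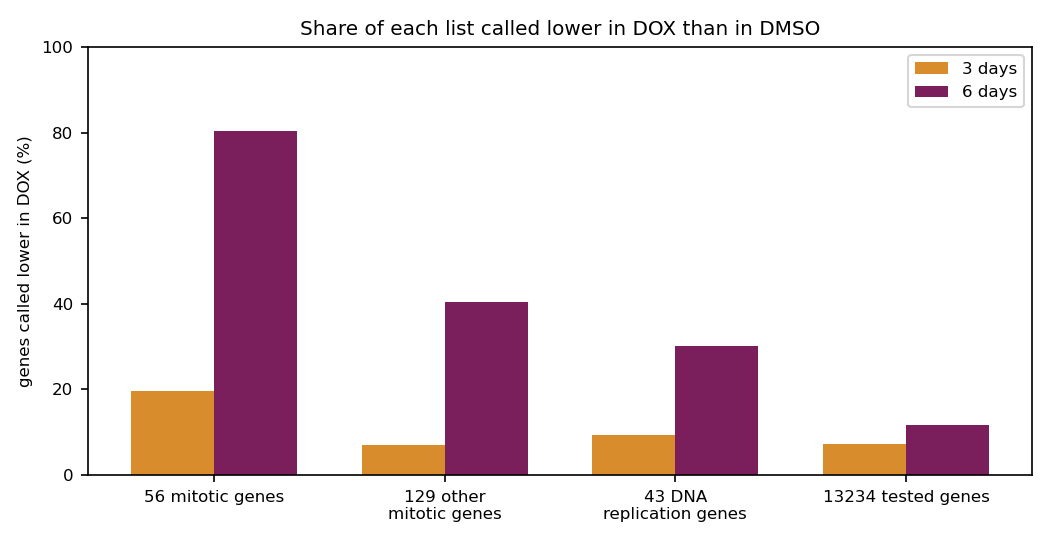
Share of genes called lower in DOX (y axis, percent) at 3 and 6 days for the 56 mitotic genes, 129 other mitotic genes, 43 DNA replication genes and all 13234 genes tested. At 6 days the bars stand at 80.4%, 40.3%, 30.2% and 11.6%, and at 3 days at 19.6%, 6.98%, 9.30% and 7.22%. The lists were chosen with earlier results of these data known.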

How the data were processed

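Estimated counts and TPM of 16 libraries were used. Per the labels and submitters' processing notes, the authors aligned paired reads to GRCm38.p6 with STAR 2.6.0c and quantified genes with Salmon 0.14.10. The deposited values are estimated counts, not normalized, and the TPM values of the authors, scaled to transcript length and library total. Every gene ID was found in GENCODE release M21, the source of positions, overlaps and transcript lengths.

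Estimated counts were rounded. Of all genes, 13234 reached 1 CPM in 4 or more libraries and were fitted with 1 mean per group in edgeR 4.0.16 (R 4.3.3; TMM, robust quasi-likelihood). DOX was compared with DMSO at each time, and 6 with 3 days in each treatment, by two-sided glmTreat (fold 1.2), and the difference of DOX effects by glmQLFTest. P-values were adjusted by Benjamini-Hochberg over all tested genes, with a limit of 0.05. SE is the log2 fold change over the root of the F statistic. CPM values are TMM-scaled.

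Alternatives were RLE scaling, DESeq2 1.42.0, limma 3.58.1 (treat on log2(TPM + 1)), another fold threshold, other filters, no robust estimation, only the 8 libraries of a comparison, the replicate number as a block, a length offset, and leaving out each library. The offset was a spline of 5 degrees of freedom on log2 effective length, fitted in each library. The fitted value was a gene's log2 CPM minus its mean over all libraries. Effective length was the median over libraries of count over TPM, not the longest annotated transcript. On simulated counts of 13076 genes, glmTreat recovered 79.0% of 200 genes changed 1.5-fold at 3 days and 99.5% of 200 changed 2-fold at 6 days. The difference test recovered 34.5% of 200 differences of 1.333-fold with 7 false of 76 calls. Where nothing changed, 0 of 13091 genes were called. The simulated libraries held no length trend, so these counts do not bear on calls that depend on the length offset.

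The 56 genes, the lists and the alternatives were chosen with earlier results of these data known. CPM in every library is given for the lowest and highest 6-day value of each functional group, every gene called at 3 days or called higher, and every gene whose difference between times was called. Of other lists the lowest (5 or 3) and highest (5) called 6-day values are given.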

Additional observations from a re-analysis of the deposited data

Results flagged for a closer look

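The DOX effect differed between 3 and 6 days, by edgeR's test of the difference itself, for 41 of the 56 mitotic genes, each with a lower log2 fold change at 6 than at 3 days. The values are the 6-day minus the 3-day log2 fold change. Among mitotic entry genes, the differences were -0.83 for *Cks2*, -0.63 for *Cdk1*, -0.48 for *Cks1b*, -0.43 for *Ccna2*, -0.40 for *Ccnb2*, -0.39 for *Plk1*, -0.38 for *Ccnb1*, -0.35 for *Aurka* and -0.32 for *Cdc25c*. In the checkpoint and anaphase group, the differences were -0.50 for *Pttg1*, -0.49 for *Bub1*, -0.44 for *Ube2c*, -0.42 for *Mad2l1* and -0.25 for *Bub3*. For the chromosomal passenger genes, the differences were -0.67 for *Birc5*, -0.59 for *Aurkb* and -0.33 for *Cdca8*. At the kinetochore, the differences were -0.70 for *Nuf2*, -0.62 for *Spc25*, -0.52 for *Ndc80* and -0.51 for *Cenpa*. Of the spindle motors, the differences were -0.42 for *Kif11* and -0.35 for *Kif4*. Spindle microtubule genes followed, where the differences were -0.53 for *Nusap1*, -0.48 for *Hmmr*, -0.40 for *Tacc3*, -0.36 for *Ckap2l*, -0.34 for *Tpx2* and -0.31 for *Ckap2*. In cytokinesis, the differences were -0.43 for *Kif23*, -0.42 for *Ect2*, -0.36 for *Prc1*, -0.35 for *Kif20b*, -0.29 for *Anln* and -0.22 for *Kif20a*. Of the chromosome structure genes, the differences were -0.77 for *Hmgb2*, -0.44 for *Mki67*, -0.39 for *Smc4*, -0.36 for *Top2a* and -0.29 for *Ncapd2*. Of the transcription factors, the difference was -0.35 for *Mybl2*.

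A single library stood apart from the other 3 of its group, by the gap to its nearest neighbour over the range of the group, in 10 of the 224 combinations of gene and group, or 4.46%, where chance gives about 1 in 20. It was the highest for *Ccnb1* in DOX replicate 3 of 6 days (106 CPM, others 97.4 to 98.8), *Incenp* in DOX replicate 1 of 3 days (103 CPM, others 88.3 to 89.1) and DMSO replicate 1 of 6 days (132 CPM, others 116 to 117), *Cenpe* in DOX replicate 1 of 3 days (120.5 CPM, others 106 to 109) and *Ncapd2* in DMSO replicate 1 of 6 days (178 CPM, others 142 to 148). It was the lowest for *Cdk1* in DMSO replicate 4 of 3 days (163 CPM, others 171 to 172), *Cdc25b* in DOX replicate 2 of 6 days (61.3 CPM, others 67.0 to 67.4), *Mad2l1* in DMSO replicate 4 of 3 days (76.8 CPM, others 85.6 to 87.2), *Tpx2* in DMSO replicate 1 of 3 days (137 CPM, others 147 to 149) and *Mybl2* in DOX replicate 1 of 6 days (23.3 CPM, others 27.2 to 27.6). DOX replicate 1 of 3 days, high for *Incenp* and *Cenpe*, is also the library of its group without the length trend, and the part of that trend in these values was not tested.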

How the results depend on the processing

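Among the 56 genes, 0 called values of 3 or 6 days changed sign under the alternatives. Of the 12 genes called at 3 days, 8 stayed called without each library in turn and 3 under every other alternative, and at 6 days 41 and 38 of 46 did. The 11 genes lower at 3 days became 6 with DESeq2, 31 with no fold threshold, 3 with the length offset and 4 with the length offset and the replicate block, and 8 to 13 without 1 library. These are 10.7%, 55.4%, 5.36% and 7.14% of the 56 genes, where 4.58%, 22.2%, 5.4% and 5.3% of all genes were lower. Without 1 library, 6.07% to 9.19% of all genes were lower at 3 days. The 45 lower at 6 days ranged from 40 to 47 without 1 library, beside 10.4% to 12.2% of all genes. The 6-day calls lost under an alternative other than leaving out a library were *Cks1b*, *Cdc25c*, *Aurka*, *Mad2l1*, *Ube2c* and *Dlgap5* with DESeq2, *Ccnb1*, *Cdc25c*, *Aurka*, *Kif2c* and *Dlgap5* with limma, *Cks1b* and *Ube2c* with the length offset, *Cdc25c* and *Dlgap5* with the 8 libraries of the time alone, and all of these but *Kif2c* with no filter beyond 1 count. The 41 differences between times became 13 with limma (12 of them lower), 48 with the length offset (47 lower) and 7 with a threshold of 1.2, and 35 to 41 without 1 library. In the fits with limma, the offset and the threshold, 2.91%, 8.04% and 0.725% of all genes had a lower effect at 6 days. Without 1 library this share was 5.96% to 14.7%. The 14 genes that differed between 6 and 3 days in DOX became 8 with DESeq2, 3 with limma (2 of them lower), 46 with no fold threshold (44 lower) and 8 with no filter beyond 1 count, and 8 to 19 without 1 library. Those 4 alternatives called 1.31%, 0.311%, 14.6% and 0.982% of all genes lower, and the fits without 1 library 1.53% to 4.9%. The median at 3 days was -0.38 with limma on log2(TPM + 1), on a scale where the median of all genes is shifted by -0.15, so that the mitotic genes lay at -0.23 relative to it, and 8 genes not called in either fit changed sign there at 3 days. The 9 other mitotic genes lower at 3 days became 3 with DESeq2, 4 with limma, 44 with no fold threshold, 3 with the length offset and 2 with the block added (6 to 12 without 1 library), and the 52 at 6 days became 34 with limma and 89 with no fold threshold. Under these settings 4.58%, 4.67%, 22.2%, 5.4% and 5.3% of all genes were lower at 3 days, and 7.06% and 25% at 6 days. DNA replication genes went from 4 to 14 at 3 days and from 13 to 32 at 6 days with no fold threshold, where 22.2% and 25% of all genes were lower. The cause of these moves was not tested, beyond the looser threshold that calls more genes.

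Same-numbered libraries did not deviate together: the mean correlation of their deviations was -0.096 and -0.12 between treatments at 3 and 6 days, and 0 of 4 correlated best with their own number, so that the numbers do not pair them. With the replicate block, 11 genes were lower at 3 days, 45 at 6 days, 37 had a difference between times, and 11 differed between 6 and 3 days in DOX. Of all genes, 6.89%, 11.2%, 7.56% and 2.03% were lower in these comparisons with the block. The depth of 16933343 to 23960860 counts leaves little counting error for these genes, of at least 18 CPM, and the number of 4 libraries limits the precision. Fewer cycling cells cannot be told apart from less RNA in each, and no cell counts were analysed here.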
